A study of Mus musculus with 9 samples.

Results

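The genes described here encode 10 matricellular proteins, which cells secrete into the extracellular matrix to tune adhesion and growth factor signals rather than to build the matrix itself. They are the CCN family members Ccn1 to Ccn5, the thrombospondins Thbs1 and Thbs2, tenascin C (Tnc), periostin (Postn) and Sparc. They were taken by gene symbol from a table of 55359 mouse genes, each symbol matched a single row, and all 10 were among the 14649 genes with enough counts to be tested. RNA was sequenced from adipocyte precursors of the inguinal white fat pad, which lies under the skin, with 3 libraries each from cells before induction (day 0) and from cells at day 4 and day 8 of beige differentiation, which yields fat cells able to release heat. Day 0 cells had no induction medium. Day 4 and day 8 cells were given dexamethasone, 3-isobutyl-1-methylxanthine, indomethacin, insulin, triiodothyronine and rosiglitazone for 2 days, and then a medium without dexamethasone, 3-isobutyl-1-methylxanthine and indomethacin. No day 4 or day 8 cells without the induction medium were analysed here, so time in culture and differentiation cannot be told apart. The labels name no strain, genotype or age of the mice.

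CCN proteins share a modular build and bind integrins and heparan sulfate proteoglycans. Ccn1 and Ccn2 are textbook targets of the coactivators YAP and TAZ with TEAD factors, of TGF-beta signalling and of the actin-sensing factors MRTF and SRF. Thrombospondin 1 binds CD47 and CD36 and can activate latent TGF-beta, and periostin and SPARC bind collagen and take part in fibril assembly. Precursors of fat cells resemble fibroblasts and make much matrix, and they leave that state as they round up and store lipid.

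Total counts per library ranged from 26387408 to 31474490, and 3 counts in a library corresponded to 0.0809 to 0.125 CPM. CPM, the usual depth-scaled read count, were computed from the library total and the TMM factor and are given as mean ± SD over 3 libraries per day. Fold changes are log2 values of the edgeR fit with their standard error (SE), and a change was called at an adjusted p under 0.05. The labels do not say that replicates were separate cultures or animals, so each p-value reflects only how far these libraries spread, which may be technical. Markers of fat cells summed to between 398 and 478 CPM at day 0, with all 10 higher at days 4 and 8. Thermogenic markers rose from at most 0.512 CPM to between 173 and 315 CPM at day 4 and 656 and 1568 CPM at day 8. All 6 were called higher at day 4. Dio2 was near the lowest measurable level there, at 0.709, 0.0726 and 0.197 CPM in replicates 1, 2 and 3. In replicate 2, 3 counts corresponded to 0.109 CPM. Kcnk3 made up most of the day 4 sum, at 241, 152 and 230 CPM in replicates 1, 2 and 3. Ucp1 had a mean of 6.71 CPM at day 4 and 156 CPM at day 8. Precursor markers summed to between 1328 and 1441 CPM at day 0 and 432 and 557 CPM at day 8. They did not move as one. Of the 7 tested, 3 (Ly6a, Cd34 and Dlk1) were called higher and 3 lower at day 4 than at day 0. At day 8 none was called higher and 4 were called lower. Day 4 replicate 2 stood apart from its group. Its fat cell markers summed to 27650 CPM against 48660 and 44010 CPM in replicates 1 and 3, and its precursor markers to 1637 against 656 and 711 CPM. Ly6a made up most of these precursor sums, at 1132 CPM in replicate 2 against 496 and 464 CPM in replicates 1 and 3. All 10 matricellular genes were highest at day 4 in replicate 2, as were 41.8% of all tested genes. The day 4 fold changes of the 10 genes are also given without it, as are other day 4 results that it moved most, and its part in the results was not tested. Markers of endothelium summed to between 11.8 and 15.9 CPM at day 0 (5 of 6 tested, none of them at 0 in all libraries), to between 2.75 and 10.6 CPM at day 4, where replicate 2 was highest, and to between 1.85 and 2.77 CPM at day 8. Tek made up most of these sums, with means of 10.6, 4.38 and 1.57 CPM on the 3 days. Of the 5 tested, 2 were called lower at day 4 and 4 at day 8. The 6 lymphocyte markers summed to at most 0.404 CPM in any library, with Cd3d and Ms4a1 at 0 throughout. Macrophage markers summed to between 37.6 and 85.1 CPM at day 0, 50.5 and 69.8 CPM at day 4 and 8.81 and 46.3 CPM at day 8, and those of mural cells, which are contractile, to between 39.0 and 47.2, 71.1 and 85.2, and 51.4 and 62.1 CPM. Lyz2 led the macrophage sums at days 0 and 4, with means of 49.2, 42.8 and 17.3 CPM on the 3 days. None of the 7 macrophage markers tested was called at day 8 against day 0. In bulk RNA, fewer cells of a type and less RNA per cell cannot be told apart.

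Nearly all of these transcripts fell after induction. At day 4, 9 of the 10 were called lower than at day 0 and none higher, where 26.0% of all tested genes were called lower and 28.6% higher. At day 8 all 10 were called lower, against 29.9% of all tested genes, with 33.5% called higher. The CPM of day 0 did not overlap those of day 4 for any of the 10, against 33.0% of tested genes that were lower without overlap, nor those of day 8, against 35.3%. The median log2 fold change of the 10 was -3.72 at day 4 and -3.00 at day 8, beside -0.01 and 0.03 over all tested genes. Without day 4 replicate 2 all 10 were called lower at day 4, with a median of -4.31. Together the 10 genes took 2.41% ± 0.083 of all counts at day 0, 0.739% ± 0.245 at day 4 and 0.505% ± 0.0816 at day 8. Among them, the 5 CCN genes took 0.300% ± 0.0139, 0.0277% ± 0.0175 and 0.0299% ± 0.00581, and without day 4 replicate 2 the day 4 mean was 0.0176%. Sparc made up 44.1% ± 1.47 of the counts of the 10 genes at day 0, 80.7% ± 3.83 at day 4 and 71.5% ± 6.19 at day 8.

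**Figure D1:**
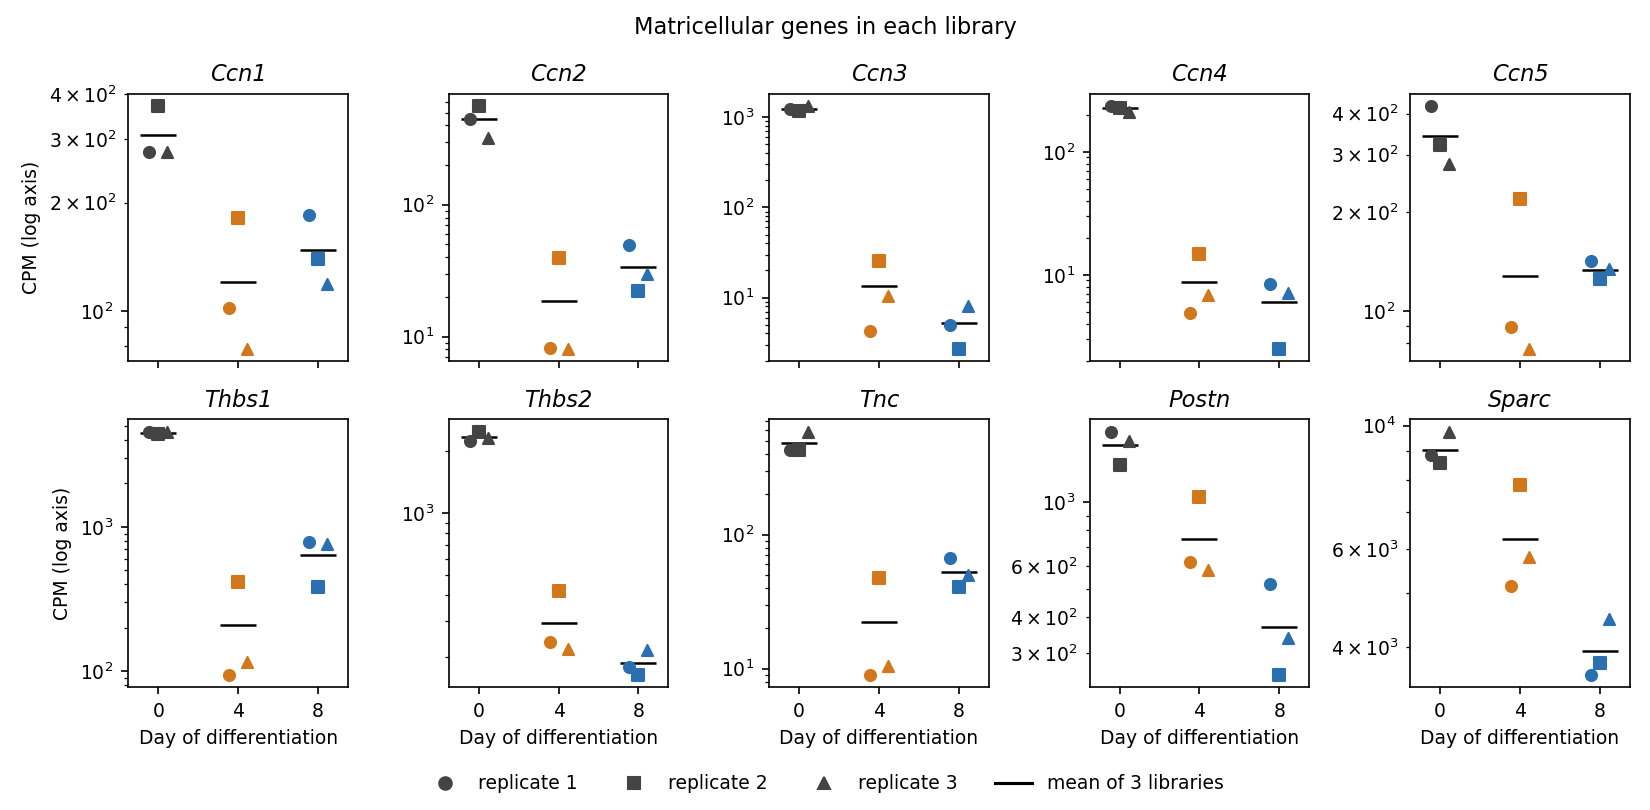
CPM (log axis) of each of the 10 genes in each of the 9 libraries, by day of differentiation, with symbols for the replicates and a line at the mean of the 3 libraries of a day. Every day 0 library lies above every day 4 and day 8 library of the same gene, and replicate 2 is the highest day 4 library in all 10 panels.

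The genes also differed in level per length, given as CPM per kilobase of exon over all annotated transcripts of a gene. The order between genes depends on these lengths. Postn, with 8702 bases, had a day 0 mean of 1581 CPM, above the 1242 CPM of Ccn3, with 2869 bases. At day 0 Sparc, a collagen-binding glycoprotein, stood at 2390 ± 165 and ranked 5 among the 14622 tested genes with a known length. It was followed by Thbs1 at 741 ± 16.8, Ccn3 at 433 ± 32.1 and Thbs2 at 336 ± 17.8, and the libraries of these 4 genes did not overlap. Postn, Ccn5, Ccn2 and Ccn1 lay between 153 and 182 with overlapping libraries, above Tnc at 62.0 ± 11.6 and Ccn4 at 40.5 ± 2.27. By day 8 the order was another. Sparc was still the highest at 1038 ± 130, with rank 56, followed by Thbs1 at 106 ± 36.8, whose libraries overlapped those of Ccn1 at 73.1 ± 16.8. Ccn3 had dropped to 1.83 ± 0.948 and rank 8603, with libraries that overlapped those of Ccn4, the lowest of the 10 at 1.08 ± 0.562.

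**Figure D2:**
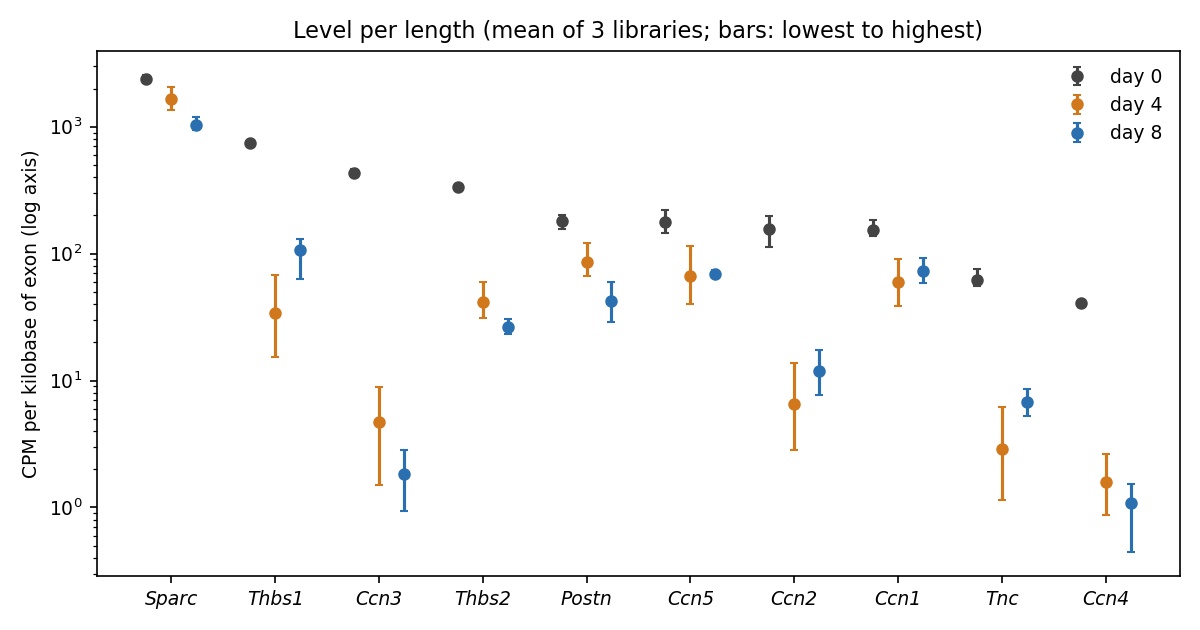
Level of the 10 genes in CPM per kilobase of exon (log axis), ordered by the day 0 mean, with points for the mean of 3 libraries and bars from the lowest to the highest library. Sparc holds the highest level on each day, and Ccn3 moves from the third level at day 0 to below all but Ccn4 at day 8.

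Promoter sequence was available for 5 of the 10 genes (Ccn1, Thbs2, Tnc, Postn and Sparc) in RefSeq, build GRCm38.p6, which is not the build of the counts. The 250 bases before each start were searched on both strands for GGAATG, the core of TEAD sites, TGANTCA, the site of AP-1, TATAAA, the TATA box, and the CArG box of SRF. Over all 32851 promoters of the table these occurred in 12.6%, 6.75%, 12.4% and 1.47%. The promoters with a match are shown because they set Ccn1, a mild faller, beside the steep fallers Tnc and Thbs2 and the stepwise faller Postn, each at the annotated start named by its coordinates. Tnc has another annotated start nearby, whose promoter at chr4:64046937-64047186 overlaps the printed window and holds the same TATAAA. Postn also has another annotated start, whose promoter at chr3:54359017-54359266 held none of these motifs and is not shown. Capitals mark the matches, and each sequence runs 5′ to 3′ toward the start on the minus strand for Ccn1, Tnc and Thbs2 and on the plus strand for Postn.
Ccn1, chr3:145649986-145650235: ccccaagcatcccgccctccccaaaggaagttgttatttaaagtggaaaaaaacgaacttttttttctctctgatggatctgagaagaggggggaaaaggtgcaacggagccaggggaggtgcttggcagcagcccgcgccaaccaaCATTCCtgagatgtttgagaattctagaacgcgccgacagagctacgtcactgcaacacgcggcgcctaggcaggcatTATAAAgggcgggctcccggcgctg
Tnc, chr4:64047016-64047265: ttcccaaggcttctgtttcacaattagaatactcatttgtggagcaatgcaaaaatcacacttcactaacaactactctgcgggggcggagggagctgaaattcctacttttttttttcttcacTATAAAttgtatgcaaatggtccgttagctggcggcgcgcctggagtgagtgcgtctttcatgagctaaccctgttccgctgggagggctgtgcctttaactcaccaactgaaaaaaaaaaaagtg
Thbs2, chr17:14694263-14694512: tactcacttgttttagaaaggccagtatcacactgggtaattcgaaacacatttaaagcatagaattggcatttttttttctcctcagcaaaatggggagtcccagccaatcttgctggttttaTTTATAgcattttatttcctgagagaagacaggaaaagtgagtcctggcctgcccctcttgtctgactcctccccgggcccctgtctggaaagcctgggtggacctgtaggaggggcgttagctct
Postn, chr3:54360857-54361106: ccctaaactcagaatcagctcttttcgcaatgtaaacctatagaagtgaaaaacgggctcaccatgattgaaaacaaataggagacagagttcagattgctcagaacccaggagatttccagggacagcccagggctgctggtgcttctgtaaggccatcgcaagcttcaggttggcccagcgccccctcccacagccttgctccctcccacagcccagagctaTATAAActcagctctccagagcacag
The TEAD core matched in Ccn1 alone of the 5, on the antisense strand from 103 to 98 bases before the start. The TATA box matched 25 to 20 bases before the start of Ccn1 and 26 to 21 bases before that of Postn. In Tnc and, on the antisense strand, in Thbs2 it matched 126 to 121 bases before the start. Neither AP-1 nor the CArG box matched in these windows, and a match is a run of letters, not a binding site.

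Ccn3, a CCN protein known for growth restraint, fell the most of the 10. Its CPM were 1220, 1164 and 1343 at day 0, 4.30, 25.6 and 10.5 at day 4 and 5.00, 2.67 and 8.10 at day 8, for replicates 1, 2 and 3. Day 0 was far above every later library, while day 4 and day 8 overlapped. The log2 fold change was -6.52 (SE 0.65, adjusted p = 1.66e-05) at day 4 and -7.88 (SE 0.69, adjusted p = 6.25e-06) at day 8, a level 236-fold lower than at day 0. Among all 14649 tested genes its fall ranked 21 at day 4 and 19 at day 8, counted from the largest. Without day 4 replicate 2 the day 4 value was -7.38.

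Ccn4, a Wnt-inducible member of the family, also fell, from a lower start. It stood at 237, 226 and 212 CPM at day 0, 4.88, 14.7 and 6.81 CPM at day 4 and 8.43, 2.49 and 7.15 CPM at day 8. Both later days lay below 15 CPM and overlapped each other. The log2 fold change was -4.67 (SE 0.48, adjusted p = 2.17e-05) at day 4, or -5.26 without day 4 replicate 2, and -5.22 (SE 0.50, adjusted p = 1.02e-05) at day 8.

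Ccn2, connective tissue growth factor, a mediator of fibrosis, had larger fold changes than its close relative Ccn1. Its CPM were 448, 564 and 322 at day 0, 8.18, 39.6 and 8.03 at day 4 and 49.8, 22.2 and 29.7 at day 8. Replicates 1 and 3 of day 4 were the lowest libraries, below all of day 8, and replicate 2 lay within the day 8 range. The fall at day 4 was -4.58 (SE 0.64, adjusted p = 0.000166), or -5.78 without replicate 2, and that at day 8 was -3.71 (SE 0.61, adjusted p = 0.000371). An antisense gene that overlaps Ccn2, Gm15270, had at most 34 counts in a library.

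Ccn1, an integrin ligand that cells make within minutes of stimulation, fell far less. It stood at 277, 372 and 276 CPM at day 0, 102, 182 and 78.2 CPM at day 4 and 185, 139 and 119 CPM at day 8. Day 4 and day 8 overlapped, at 39.1% and 47.9% of the day 0 mean. The log2 fold changes were -1.35 (SE 0.29, adjusted p = 0.00283) and -1.06 (SE 0.29, adjusted p = 0.0085). Ccn5, which lacks the C-terminal module of the other family members and is a known product of mesenchymal fat precursors, went with Ccn1. It had 423, 320 and 281 CPM at day 0, 89.8, 219 and 76.7 at day 4 and 143, 125 and 134 at day 8. Its day 8 libraries all lay between the day 4 libraries, at log2 fold changes of -1.41 (SE 0.34, adjusted p = 0.00555) at day 4 and -1.35 (SE 0.34, adjusted p = 0.00558) at day 8. Without day 4 replicate 2 the day 4 values were -1.78 for Ccn1 and -2.03 for Ccn5.

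Ccn1 and Ccn2 were also compared by the ratio of their counts within each library, which no scaling can move. Ccn1 had 0.617, 0.661 and 0.857 counts per count of Ccn2 at day 0, 12.4, 4.59 and 9.71 at day 4 and 3.72, 6.26 and 4.00 at day 8. The days 0 and 4 did not overlap, nor did days 0 and 8. The mean log2 ratio was 3.54 higher at day 4 and 2.69 higher at day 8 than at day 0. Each had p = 0.1 in a two-sided exact permutation test, the smallest value that 3 against 3 libraries allow.

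Thbs1 was the second of the 10 per length at day 0. It had 4534, 4384 and 4579 CPM at day 0, 93.8, 414 and 116 CPM at day 4 and 788, 386 and 756 CPM at day 8. The lowest libraries were replicates 1 and 3 of day 4, while replicate 2 of day 4 and replicate 2 of day 8 lay close together and made the days overlap. The log2 fold change was -4.44 (SE 0.56, adjusted p = 8.93e-05) at day 4 and -2.81 (SE 0.52, adjusted p = 0.00084) at day 8. Without day 4 replicate 2 the day 4 value was -5.42.

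Thbs2, the other thrombospondin of this structural subgroup, with a role in collagen fibril formation, fell steeply. Its CPM were 2244, 2488 and 2324 at day 0, 237, 417 and 219 at day 4 and 180, 163 and 215 at day 8. All 3 days were separate, though replicate 3 of day 4 and of day 8 lay close together. The log2 fold change was -3.01 (SE 0.26, adjusted p = 5.79e-06) at day 4, or -3.37 without replicate 2, and -3.66 (SE 0.27, adjusted p = 2.01e-06) at day 8. The step from day 4 to day 8 was -0.65 (SE 0.24, adjusted p = 0.0754) and was not called. The ratio of Thbs1 to Thbs2 counts was 2.02, 1.76 and 1.97 at day 0, 0.395, 0.992 and 0.528 at day 4 and 4.39, 2.36 and 3.51 at day 8, with no overlap between any pair of days. The difference of its mean on the log2 scale was -1.69 for day 4 minus day 0, 2.48 for day 8 minus day 4 and 0.79 for day 8 minus day 0, each with p = 0.1 in the exact permutation test. The 6 ratio comparisons of both gene pairs had adjusted p of 0.12 to 0.2 by the Benjamini-Hochberg method.

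**Figure D3:**
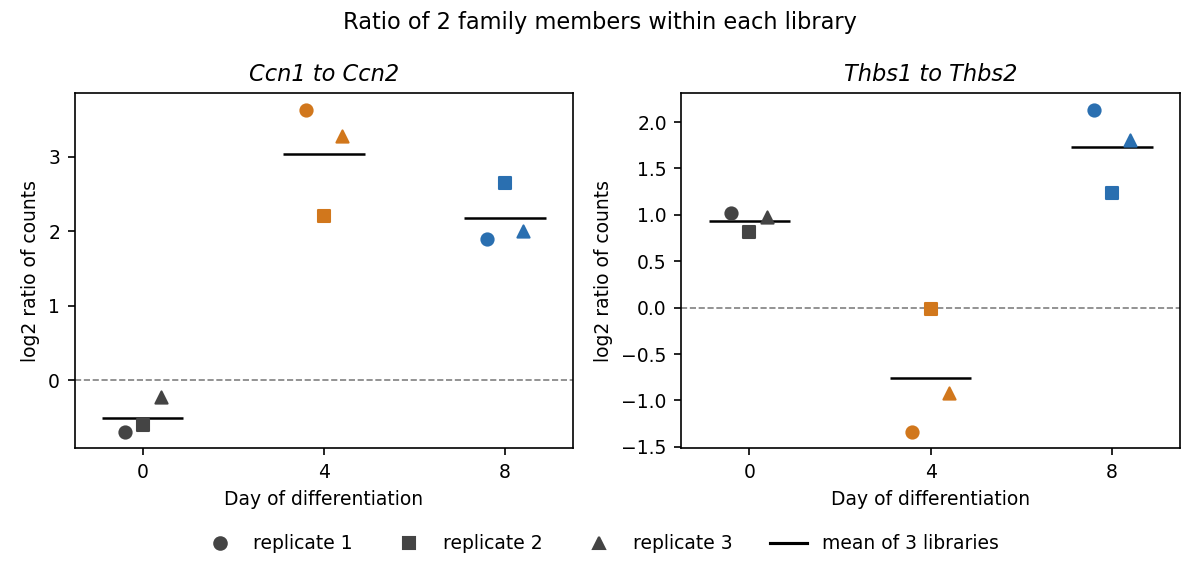
Log2 ratio of the counts (plus 0.5) of Ccn1 to Ccn2, left, and of Thbs1 to Thbs2, right, in each library by day, with a line at the mean of 3 libraries. The Ccn1 to Ccn2 ratio lies below 0 at day 0 and above 0 in every later library, and the Thbs1 to Thbs2 ratio is lowest at day 4 and highest at day 8.

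Tnc, a glycoprotein of wounds and developing tissue that counters adhesion to fibronectin, had a course close to that of Thbs1. It had 429, 431 and 586 CPM at day 0, 8.93, 47.7 and 10.4 CPM at day 4 and 66.8, 40.9 and 50.1 CPM at day 8. Replicate 2 of day 4 again lay within the day 8 range and replicates 1 and 3 far below it. The log2 fold change was -4.43 (SE 0.60, adjusted p = 0.000132) at day 4, or -5.64 without replicate 2, and -3.19 (SE 0.56, adjusted p = 0.000576) at day 8.

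Postn and Sparc, both ligands of collagen, had levels that stepped down from day to day. Postn, which helps to activate the cross-linking enzyme lysyl oxidase, stood at 1760, 1349 and 1634 CPM at day 0, 620, 1047 and 581 CPM at day 4 and 522, 252 and 338 CPM at day 8. The 3 days did not overlap, and the log2 fold change was -1.08 (SE 0.30, adjusted p = 0.0105) at day 4, or -1.40 without replicate 2, and -2.09 (SE 0.31, adjusted p = 0.000171) at day 8. Sparc had 8860, 8553 and 9753 CPM at day 0, 5153, 7822 and 5808 CPM at day 4 and 3565, 3744 and 4490 CPM at day 8, again with no overlap. Its day 4 value of -0.53 (SE 0.21, adjusted p = 0.0552) just missed the threshold. It passed without day 4 replicate 2 (-0.72, adjusted p = 0.00206), with total counts (-0.85, adjusted p = 0.00954), with the size factors of DESeq2 (-0.54, adjusted p = 0.0491) and in DESeq2 itself (adjusted p = 0.00632). At day 8 Sparc was called lower at -1.20 (SE 0.22, adjusted p = 0.000663).

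**Figure D4:**
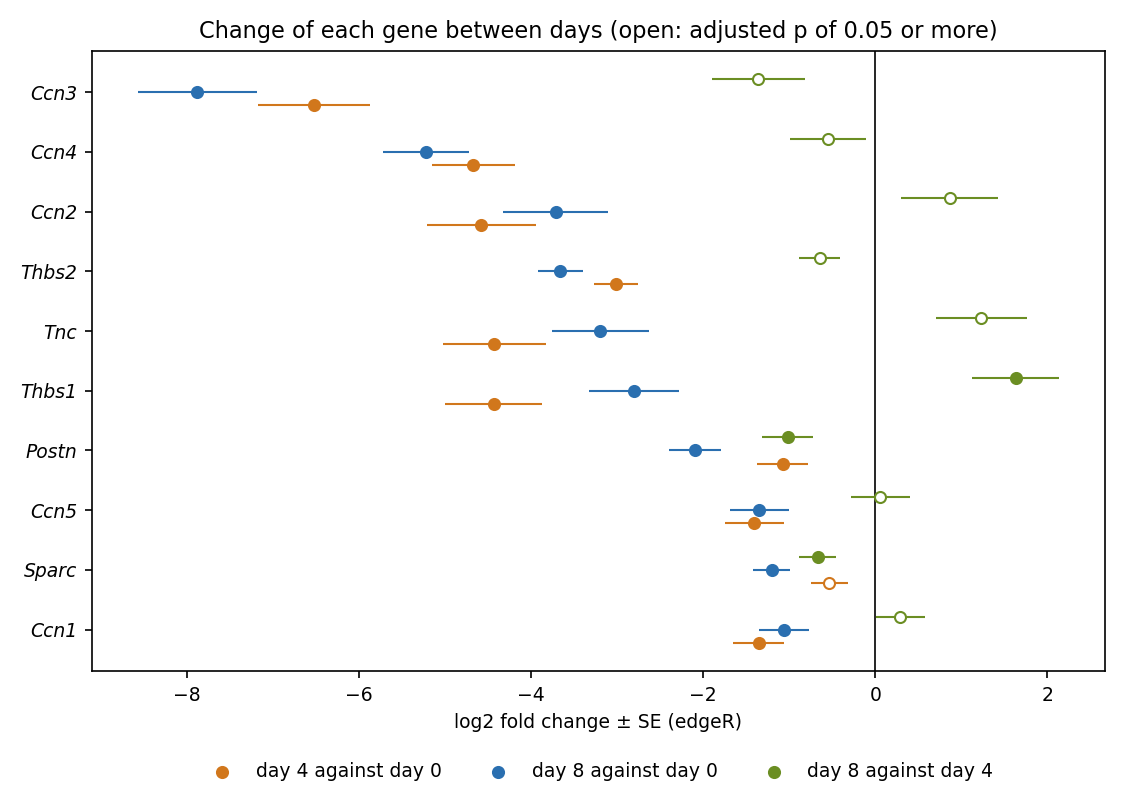
Log2 fold change ± SE from edgeR of each gene in the comparisons of days 4 and 8 with day 0 and of day 8 with day 4, ordered by the day 8 against day 0 value, with filled points at an adjusted p under 0.05. Values for day 8 against day 0 run from -7.88 for Ccn3 to -1.06 for Ccn1, while those for day 8 against day 4 lie on both sides of 0.

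Few of the genes were called between day 4 and day 8, at shares near those of all genes. Thbs1 rose again by 1.63 (SE 0.50, adjusted p = 0.0405), a 3.10-fold higher level, while Postn fell by 1.02 (SE 0.30, adjusted p = 0.0333) and Sparc by 0.67 (SE 0.21, adjusted p = 0.046). That was 1 of 10 called higher and 2 lower, beside 11.7% and 10.8% of all tested genes. The CPM of 3 genes (Thbs2, Postn and Sparc) were lower at day 8 without overlap, beside 17.1% of tested genes. Tnc stood at 1.23 (SE 0.53, adjusted p = 0.116), Ccn2 at 0.86 (SE 0.56, adjusted p = 0.284), Ccn1 at 0.29 (SE 0.29, adjusted p = 0.486) and Ccn5 at 0.06 (SE 0.34, adjusted p = 0.915). Ccn3 stood at -1.36 (SE 0.54, adjusted p = 0.0949) and Ccn4 at -0.55 (SE 0.44, adjusted p = 0.386).

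None of the 3 calls passed in a fit of the day 4 and day 8 libraries alone (adjusted p of 0.0806 for Thbs1, 0.0627 for Postn and 0.110 for Sparc). Scaling by total counts left Thbs1 at an adjusted p of 0.0642, with Postn at 0.0434 and Sparc at 0.0498. All 3 kept their calls with DESeq2 size factors, in DESeq2 and with no filter on low counts. The calls also rest on single libraries. Without day 4 replicate 2, 5 genes were called higher, namely Thbs1 (2.57, adjusted p = 0.000154), Tnc (2.39, adjusted p = 8.15e-05), Ccn2 (2.02, adjusted p = 0.00179), Ccn1 (0.67, adjusted p = 0.042) and Ccn5 (0.64, adjusted p = 0.0214). Sparc was then the only one called lower (-0.53, adjusted p = 0.0301), Postn had an adjusted p of 0.0536 and Ccn3 stood at -0.54. The rise of Thbs1 held its call only when replicate 2 of day 4 or of day 8 was the library left out, and leaving out any of the other 7 gave adjusted p from 0.0589 to 0.125. For Postn the call was lost in 4 of the 9 cases, when replicate 3 of day 0, replicate 2 of day 4 or either replicate 2 or 3 of day 8 was missing (adjusted p from 0.0511 to 0.107). For Sparc it was kept only when replicate 1 or 2 of day 4 was missing, and the other 7 cases gave adjusted p from 0.0604 to 0.122. Ccn3 was called lower without day 4 replicate 1 (-1.78, adjusted p = 0.0132) and Thbs2 likewise (-0.77, adjusted p = 0.0458).

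Genes with the most similar course were found by the root mean square difference of log2 CPM, centred on the mean over all 9 libraries, over all tested genes. The measure is a description, since all points share the same libraries and the large step after day 0. Within the 10 the closest pair was Thbs1 and Tnc, at a difference of 0.256, followed by Ccn1 and Ccn5 at 0.283. Ccn3 had no near neighbour by this measure, with Ccn4 closest at 1.18 and C1qtnf3, a secreted relative of complement factor C1q, closest outside the group at 0.617. Dpysl3 was next outside the group at 0.740. The measure also counts the size of a change, and that of Ccn3 was the largest of the 10. Its Pearson correlation over the 9 libraries was 0.992 with Ccn4 and 0.988 with C1qtnf3. Nearest to Ccn2 outside the 10 were Myl9, a myosin light chain of contractile cells, at 0.286 and the hyaluronan synthase Has2 at 0.319. Outside the 10, Angpt4, an angiopoietin, at 0.181 and the hyaluronan-binding protein Cemip at 0.282 were nearest to Thbs1. Cemip at 0.369 and the chemokine Ccl2 at 0.379 were the genes outside the 10 that were nearest to Tnc. The smallest differences between any of the 10 and an outside gene were those of Sparc, to Traf3 at 0.077 and Ncdn at 0.0802.

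Other matricellular genes were called in both directions. Of 16 listed, 12 were tested, and 4 were called higher and 4 lower at day 4 (median -0.67), near the 28.6% and 26.0% of all tested genes. At day 8, 3 were called higher and 7 lower (median -2.04), beside 33.5% and 29.9% of all tested genes. Sparcl1, the closest relative of Sparc, rose from 2.03 ± 0.635 to 45.1 ± 10.7 and 51.7 ± 4.40 CPM (4.47 at day 4, SE 0.26, adjusted p = 4.44e-07). Smoc1, a calcium-binding protein of the same family, rose from 7.82 ± 4.35 to 156 ± 42.0 and 94.1 ± 15.0 CPM (4.32 at day 4, adjusted p = 1.36e-05). Thbs3, a thrombospondin of another subgroup, fell from 55.8 ± 5.32 to 13.2 ± 6.85 and 3.84 ± 0.297 CPM (-3.86 at day 8, adjusted p = 5.29e-06). Tgfbi, a TGF-beta-induced relative of periostin, fell from 138 ± 4.12 to 8.25 ± 5.33 and 9.94 ± 6.69 CPM (-4.06 at day 4, adjusted p = 0.000106, or -4.68 without day 4 replicate 2). Smoc2 was at 63.0 ± 21.9, 27.1 ± 14.6 and 2.72 ± 3.08 CPM, and was called lower at day 8 (-4.52, adjusted p = 0.000518, or -5.95 without day 8 replicate 3).

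Receptors of these proteins were more often called lower than higher. Of 16 tested, 3 were called higher and 10 lower at day 4 (median -0.93), with the same counts at day 8 (median -1.70). Of all tested genes, 28.6% were called higher and 26.0% lower at day 4, and 33.5% and 29.9% at day 8. Cd36, a thrombospondin receptor that also carries fatty acids and was among the fat cell markers, rose from 0.847 ± 0.618 to 1589 ± 609 and 1467 ± 287 CPM (10.88 at day 4, SE 0.64, adjusted p = 4.87e-07, or 11.53 without day 0 replicate 3). Cd47, the other thrombospondin receptor, stood at 106 ± 10.0, 80.6 ± 11.1 and 104 ± 3.29 CPM. Its day 4 call at -0.40 (adjusted p = 0.0273) did not pass without day 0 replicate 1 or 3 or day 4 replicate 1 or 3 (adjusted p up to 0.118). Lrp1, an endocytic receptor for several of these proteins, fell from 1611 ± 83.0 to 724 ± 289 and 415 ± 38.2 CPM (-1.96 at day 8, adjusted p = 7.37e-05). Of 9 integrin chains tested, 7 were called lower and 1 higher at day 4, with the same counts at day 8. Itga8 was among the lower ones (-3.16 at day 4, adjusted p = 9.96e-05), and Itga6, a laminin receptor chain, was the one called higher (5.09, adjusted p = 9.33e-08).

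The lists of known regulators and co-regulated genes held more genes called lower than higher at days 4 and 8. They were chosen with earlier results of these data known. Over all tested genes, 28.6% were called higher and 26.0% lower at day 4, and 33.5% and 29.9% at day 8. A list of 16 genes joined the Hippo pathway, which restrains YAP and TAZ, with Yap1, Wwtr1, the TEAD factors and their partners Vgll3 and Vgll4. Its counts therefore mix genes that restrain with those restrained. At day 4, 3 were called higher and 9 lower (median -0.62). At day 8, 1 was called higher and 8 lower (median -0.66), with none higher without day 0 replicate 1 or 3 or with total counts. Yap1 fell from 190 ± 5.01 to 128 ± 8.10 and 91.3 ± 2.55 CPM (-1.06 at day 8, adjusted p = 2.13e-05), and Tead1, a DNA-binding partner of YAP, from 155 ± 22.1 to 67.2 ± 6.98 and 34.8 ± 10.7 CPM (-2.15 at day 8, adjusted p = 1.38e-05). Wwtr1, which encodes TAZ, stood at 138 ± 2.72, 147 ± 7.31 and 148 ± 8.23 CPM (0.10 at day 8, adjusted p = 0.443). Among 20 known YAP and TAZ targets other than CCN genes, 3 were called higher and 11 lower at day 4 (median -1.15), and 1 higher and 15 lower at day 8 (median -1.30). Ankrd1, a muscle ankyrin repeat protein, fell from 7.16 ± 1.99 to 0.149 ± 0.155 CPM at day 4 (-5.50, adjusted p = 3.82e-05, or -6.78 without day 4 replicate 2), and tissue factor F3 from 1041 ± 59.9 to 125 ± 88.2 CPM (-3.06, adjusted p = 0.000233, or -3.82). Nt5e, an ectoenzyme that makes adenosine, was the member called higher at both days (4.07 at day 4, adjusted p = 0.000483, or 4.75 without day 0 replicate 3). With total counts, 1 of the 20 was called higher at day 4, since Igfbp3 and Ccdc80 did not pass.

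All 12 TGF-beta targets were called lower at day 4 (median -2.11) and 11 at day 8 (median -2.13). Of all tested genes, 26.0% and 29.9% were called lower on these days. The inhibitory SMAD Smad7 stood at 23.2 ± 4.66, 6.34 ± 1.83 and 13.8 ± 1.78 CPM. It fell at day 4 (-1.87, adjusted p = 8.89e-05) and was called higher at day 8 than at day 4 (1.12, adjusted p = 0.00876). Of 10 TGF-beta ligands, receptors and SMADs, 6 were called lower at day 4 (median -0.78), or 9 without day 4 replicate 2, and 9 at day 8 (median -1.06), with none higher. Tgfb3 went from 109 ± 8.36 to 27.9 ± 5.47 and 13.2 ± 2.66 CPM (-3.05 at day 8, adjusted p = 8.61e-07), and Smad3 from 89.5 ± 10.7 to 27.5 ± 8.24 and 18.5 ± 3.79 CPM. All 11 genes of the SRF, MRTF and contractile list were called lower at day 4 (median -3.12) and 10 at day 8 (median -2.81). Between day 4 and day 8 none of these was called higher and 1 lower (0 to 3 lower when any one library was left out), or 6 and 1 without day 4 replicate 2, when 6 of the 12 TGF-beta targets were called higher in place of 2. The same 3 genes (Acta2, Tagln and Tpm1) stand in both lists. Over all tested genes, 11.7% were called higher and 10.8% lower between day 4 and day 8.

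Collagens and the enzymes that cross-link them, with which Sparc and Postn act, were mostly called lower. Their list also held the proteases Bmp1 and Mmp2, and it shared some genes with earlier lists. Of 16 genes, 3 were called higher and 10 lower at day 4 (median -0.92), or 13 lower without day 4 replicate 2, and 1 higher and 14 lower at day 8 (median -1.99). Of all tested genes, 28.6% were called higher and 26.0% lower at day 4, and 33.5% and 29.9% at day 8. Between day 4 and day 8, 7 of the 16 were called lower and none higher, beside 10.8% and 11.7% of all tested genes. However, 3 were called lower without day 8 replicate 1 or 2 and 4 without day 4 replicate 3, and 1 was called higher without day 4 replicate 2. Col5a2, a chain that controls fibril width, fell from 3042 ± 230 to 618 ± 232 and 357 ± 87.6 CPM (-3.09 at day 8, adjusted p = 9.22e-06). Col5a3, another chain of the same collagen type, rose from 36.6 ± 12.9 to 533 ± 89.1 and 368 ± 28.8 CPM (3.33 at day 8, adjusted p = 2.42e-06).

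**Figure D5:**
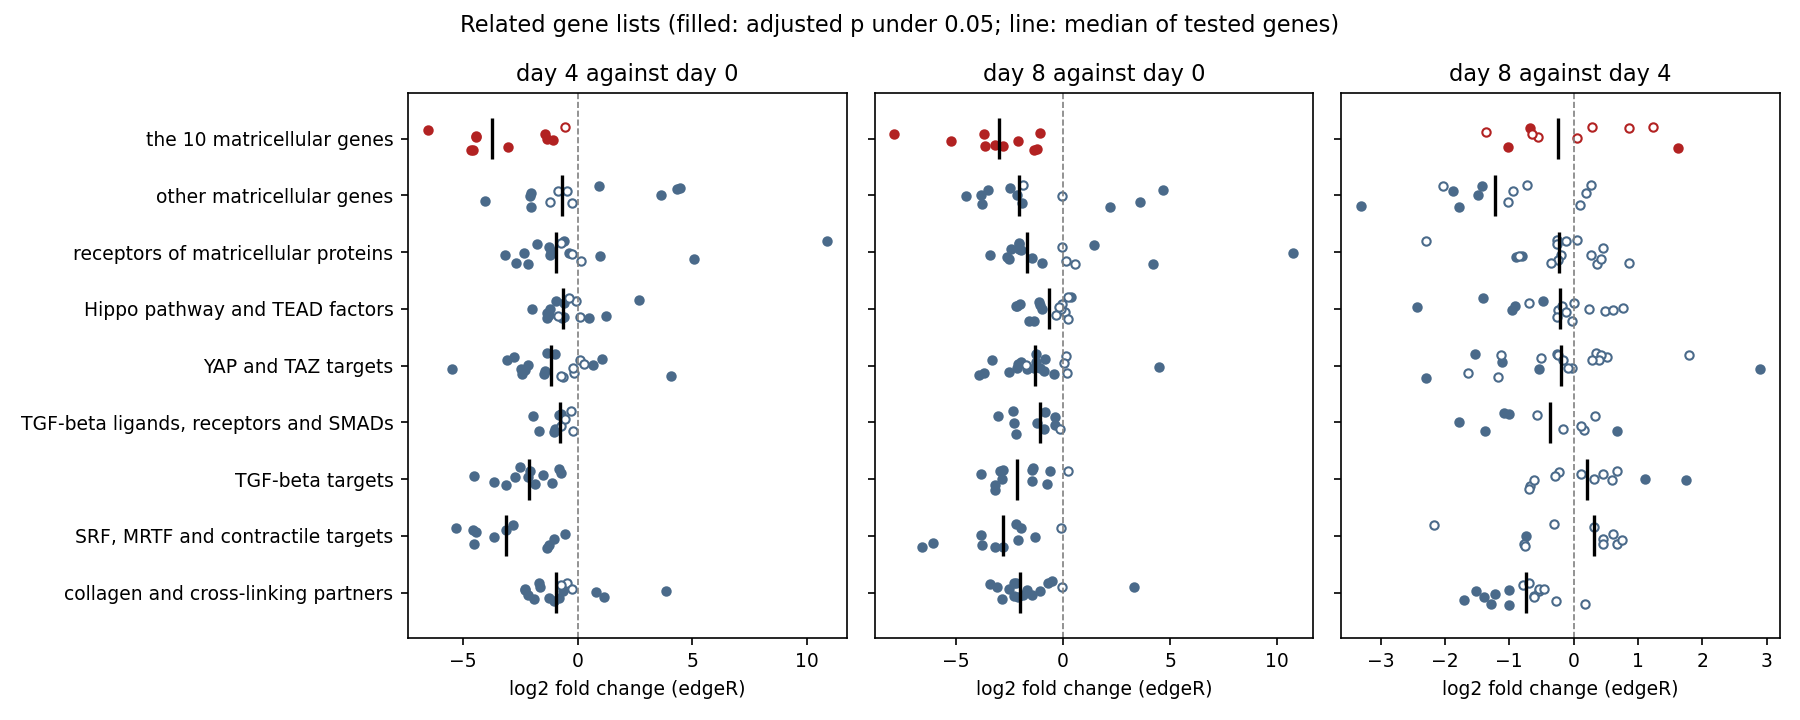
Log2 fold change from edgeR of the 10 matricellular genes and of each related list in the 3 comparisons, 1 point per tested gene, filled at an adjusted p under 0.05, with a line at the median. At day 4 the medians of the 10 genes (-3.72) and of the SRF, MRTF and contractile list (-3.12) lie furthest below 0 of the lists drawn.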

How the data were processed

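The values deposited by the authors are raw counts, with genes as rows (Ensembl identifier and symbol) and 1 column for each library, not normalized. HISAT2, featureCounts and GRCm39 are named in the submitters' processing notes. No source used here gives versions, annotation or strand setting, so reads of a gene and of an antisense partner cannot be told apart. Per the labels' protocols, cells were lysed with detergent and cycloheximide, and RNA of the cleared lysate went into a stranded total RNA kit. The floor of 3 counts covers counting error only.

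The main test was that of edgeR 4.0.16 in R 4.3.3, and DESeq2 1.42.0 served as an alternative. Genes were kept with filterByExpr (minimum count 10, total 15). All 9 libraries entered 1 quasi-likelihood fit with TMM scaling and no covariates (6 residual degrees of freedom), with a two-sided F-test per comparison, Benjamini-Hochberg adjustment over the 14649 genes tested and a threshold of 0.05. Libraries of a day differed by more than sampling noise (the chi-square divided by its degrees of freedom was 16.6 to 240). Exon lengths came from GENCODE M21, of another build, for lengths only. The members, gene lists, motifs and tests were chosen with earlier results of these data known. Named beside the members were up to 3 genes per list and comparison with the largest called change, Yap1, Wwtr1, Cd36, Cd47 and Lrp1, and the 2 genes nearest in course to each member, of which only some are given. Alternatives were total counts, DESeq2 size factors, DESeq2, no filter, 2-day fits, a replicate block and leaving out each library. Some genes of the lists are not reported here by name.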

Additional observations from a re-analysis of the deposited data

How the results depend on the processing

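Of 450 fold changes of the 10 genes recomputed under the alternatives, 411 kept their side of the threshold and none of the calls changed sign. In day 8 against day 0 all 10 genes were called lower in every alternative, and in day 4 against day 0 the count was 9 or 10. With total counts as the scale, the middle log2 value of all tested genes (their median) became -0.336 at day 4 and -0.332 at day 8, and gave 8704 changed genes at day 4, of which 3073 were higher, in place of 7998 with 4192 higher. At day 8 it gave 9676, of which 3632 were higher, in place of 9290 with 4913 higher. Day 8 against day 4 was the least stable comparison. Its 3285 changed genes became 1861 with only the libraries of those 2 days, and from 1894 to 4185 when a library was left out. Its 3 called members became 6 with no filter on low counts, 0 with only the libraries of those 2 days, and from 0 to 6 when a library was left out. With the replicate number as a block, 0 of the 10 genes were called in day 8 against day 4 (adjusted p of 0.0593 for Thbs1, 0.0535 for Postn and 0.0588 for Sparc), 9 in day 4 against day 0 and 10 in day 8 against day 0, and 3105, 8070 and 9368 of all genes. Correlations of libraries with the same number ran from -0.126 to 0.273. Between day 0 and day 8 all 3 were positive (0.273, 0.138 and 0.0859) and each day 0 library correlated best with its own number, but those of day 4 with the other days ran from -0.126 to 0.0662. Not every pair passed 0.1, so the numbers were not taken as pairs. Leaving out a library gave log2 ratios of Ccn1 to Ccn2 from 3.25 to 3.96, 2.45 to 2.83 and -1.28 to -0.56, and of Thbs1 to Thbs2 from -2.07 to -1.40, 0.59 to 1.03 and 2.19 to 2.86, each in the order day 4 to day 0, day 8 to day 0, day 8 to day 4. A contractile and a matrix gene turned from lower to called higher in day 8 against day 4 when day 4 replicate 2 was left out, and over all left-out libraries Cnn1 ranged from -1.26 to 1.69 and Ltbp2 from -1.07 to 0.70. The cause of these changes was not tested. Depth was not the limit for the 10 genes, whose lowest count in a library was 66.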

Other observations

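At day 8 replicate 2 was the lowest library for 8 of the 10 matricellular genes, as it was for 34.7% of all tested genes, and the exceptions were Ccn1 and Sparc. Ccn4 stood there at 2.49 CPM against 8.43 and 7.15 CPM in replicates 1 and 3, and Postn at 252 CPM against 522 and 338 CPM. At day 4 the excess of replicate 2 over the mean of replicates 1 and 3 ranged over the genes from 1.43-fold for Sparc and 1.74-fold for Postn to 4.88-fold for Ccn2 and 4.93-fold for Tnc. Gadd45a, a growth arrest gene of the YAP and TAZ target list, dipped at day 4, with 51.9 ± 9.01 CPM at day 0, 7.59 ± 0.923 at day 4 and 56.5 ± 9.04 at day 8. It was called lower at day 4 (-2.77, adjusted p = 1.17e-06) and higher at day 8 against day 4 (2.90, adjusted p = 5e-05). The coactivator partner Tead4 went the other way, with 0.968 ± 0.0927, 6.20 ± 1.81 and 1.15 ± 0.234 CPM, called higher at day 4 (2.68, adjusted p = 4.8e-05) and lower at day 8 against day 4 (-2.43, adjusted p = 0.000871).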
